A study of Mus musculus with 23 samples.

Results

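Messenger RNA of 7 genes was followed in dendritic cells (DCs) sorted from mouse spleen: Flt3, Csf1r, Kit, Csf2ra, Csf2rb, Csf2rb2 and Csf3r, the FLT3 and colony-stimulating factor receptors with their near relatives. The genes were found by symbol for the Ensembl gene ids of the deposited table, and make 7 of its 47729 genes. All 7 passed the filter on low counts and were tested. The samples were pools of wild type Balb/C mice whose age is not given in the sources used here. Untreated mice gave 2 pools and mice labelled TLI gave 4. TLI is not spelled out in the labels and commonly stands for total lymphoid irradiation, and its dose and timing are not given in the sources used here. Cells were sorted by flow cytometry into DC1a (CD8hi CD172-), DC1b (CD8Int CD172+), DC2 (CD8lo CD172hi) and DC3 (CD8- CD172lo) cells. The labels number the pool or set of each library, and the same number was taken to mark the same pool in each subset. TLI pool 2 has no DC2 library among those analysed, which leaves 23 libraries: 2 in each Untreated group, 4 each of TLI DC1a, DC1b and DC3, and 3 of TLI DC2. By their labels the Untreated pools and TLI pools 1 and 2 belong to batch 1, and TLI pools 3 and 4 to batch 2. A p-value here measures the spread between these pools.

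These receptors carry the growth signals of myeloid and DC development. FLT3, CSF1R and KIT are receptor tyrosine kinases of one class: FLT3 ligand maintains DCs and their precursors, CSF1 and IL-34 maintain monocytes and macrophages, and stem cell factor acts through KIT on progenitors and mast cells. The GM-CSF receptor pairs an alpha chain (Csf2ra) with the beta chain Csf2rb, which also serves the receptors for IL-3 and IL-5. Mice carry a paralogue, Csf2rb2, whose product serves the IL-3 receptor only. The G-CSF receptor (Csf3r) is best known on neutrophils and their precursors.

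The paralogues Csf2rb and Csf2rb2 lie beside each other on chromosome 15 and are alike enough that short reads can fit both, so a stretch of their coding sequence is shown first. The 298 bases below come from exon 14 of 14 of transcripts Csf2rb-201 (chr15:78348549-78348846) and Csf2rb2-201 (chr15:78284602-78284899), in the GENCODE transcripts of assembly GRCm38. Csf2rb is read from the plus strand and Csf2rb2 from the minus strand. Capitals mark the 5 bases that differ, and the windows are 98.3% identical.
Csf2rb: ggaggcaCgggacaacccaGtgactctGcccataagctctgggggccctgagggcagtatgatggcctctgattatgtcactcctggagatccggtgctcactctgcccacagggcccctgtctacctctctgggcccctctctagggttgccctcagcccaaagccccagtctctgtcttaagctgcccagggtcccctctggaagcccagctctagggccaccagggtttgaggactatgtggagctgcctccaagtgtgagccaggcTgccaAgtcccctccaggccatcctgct
Csf2rb2: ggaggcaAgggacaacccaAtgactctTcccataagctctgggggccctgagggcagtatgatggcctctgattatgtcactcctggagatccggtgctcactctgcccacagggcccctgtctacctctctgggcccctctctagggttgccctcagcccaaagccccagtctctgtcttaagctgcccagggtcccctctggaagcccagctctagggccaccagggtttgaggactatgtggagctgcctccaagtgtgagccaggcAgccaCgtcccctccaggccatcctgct
Between the capitals lies a run of 242 identical bases, the longest in the coding sequence of these transcripts, against reads of 76 bases. Over all annotated transcripts, 507 stretches of 76 bases were shared, which is 7.001% of those of Csf2rb and 10.4% of those of Csf2rb2. By the study's methods only uniquely mapped reads were counted, so reads lying wholly within such stretches may be missing from both genes, and their values are uncertain to that extent.

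Levels are given as CPM, the reads of a gene scaled to a common library total by the library's own sum, and the sums ran from 19256447 to 36997890 counts. A gene with 3 counts or fewer was held to be at or under the floor, which lay between 0.0811 and 0.156 CPM. Amplified reads are not independent molecules, so floors cover counting error only. Cd8a lay between 315 and 850 CPM in every DC1a library and under 1.1 CPM in every DC2 library, yet ranged from 0.327 to 343 CPM in TLI DC1b. Sirpa, which encodes CD172a, was at or under 0.676 CPM in DC1a and ranged from 9.22 to 309 CPM in TLI DC2. The 10 markers of conventional type 1 DCs summed to 3599 to 8214 CPM in DC1a and 388 to 668 CPM in DC2. DC1b libraries held genes of other cells, and so did libraries of the other subsets. The 8 plasmacytoid DC markers summed to 5897 and 8459 CPM in Untreated DC1b, and to 62.0 to 174 CPM in TLI DC1b. Neutrophil markers, 12 genes, summed to 1527 to 21848 CPM in TLI DC1b, and to 1.16 and 21.7 CPM in Untreated DC1b. In TLI DC2 they summed to 137 to 2355 CPM. Erythroid markers, 6 genes, summed to 107 to 83637 CPM in TLI DC1a and 1415 to 45711 CPM in TLI DC1b. Their sums were 1069 to 34709 CPM in TLI DC2 and 250 to 96811 CPM in TLI DC3. Natural killer cell markers, 5 genes, reached 2533 CPM in TLI DC3. In bulk libraries, fewer cells of a type and less RNA per cell cannot be told apart.

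Csf1r had 3 of the 4 differences between subsets that passed edgeR's test. It was high in DC2 and DC1b cells and low in DC1a and DC3 cells, in Untreated as in TLI mice. Flt3 was found in every library and was lower in DC2 than in DC1a cells of TLI mice. Csf2rb2 stood far higher in Untreated DC1b cells than in every other library, and Csf3r was near the floor outside DC1b and DC2 cells with 1 exception. For each difference all genes entered edgeR's quasi-likelihood test, and p-values were adjusted by the method of Benjamini and Hochberg, with a threshold of 0.05.

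In pairs of subsets of TLI mice, 4 of 42 tests of the receptors passed the threshold, and 12 had an unadjusted p under 0.05. The share of all genes at an unadjusted p under 0.05 was not computed. Such counts, here and below, thus have no background to be read against. The 4 calls are to be read against the share of all 19597 tested genes called in the same comparison, which was 1.42% for DC1b against DC1a, 3.40% for DC2 against DC1a, and 1.37% for DC3 against DC2. In these comparisons 1, 2 and 1 of the 7 receptors were called. The median log2 fold change of the 7 was 0.20, 0.49 and -0.89 there, beside 0.02, 0.02 and -0.03 for all genes. In the other pairs of TLI subsets edgeR called none of the 7, where 0.750% of genes were called for DC3 against DC1a, 0.214% for DC2 against DC1b, and 1.11% for DC3 against DC1b. DESeq2 made 10 calls of receptors in the 6 TLI pairs, of which Csf1r and Flt3 in DC3 against DC1b fell in these other pairs. DESeq2 called many more genes in all, 4.98% to 12.5% of them in TLI pairs, and its calls are to be read against its own shares. In Untreated mice edgeR called 0 of 42 tests, with 11 at an unadjusted p under 0.05, and DESeq2 called 5, beside 4.15% to 9.66% of all genes. The share of all genes called by edgeR there was 0.837% for DC1b against DC1a, 1.91% for DC2 against DC1a, 0.184% for DC3 against DC1a, 0.398% for DC2 against DC1b, 0.393% for DC3 against DC1b, and 0.837% for DC3 against DC2. A call in TLI mice without one in Untreated mice does not show a difference between them, since Untreated groups held 2 libraries each.

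**Figure D1:**
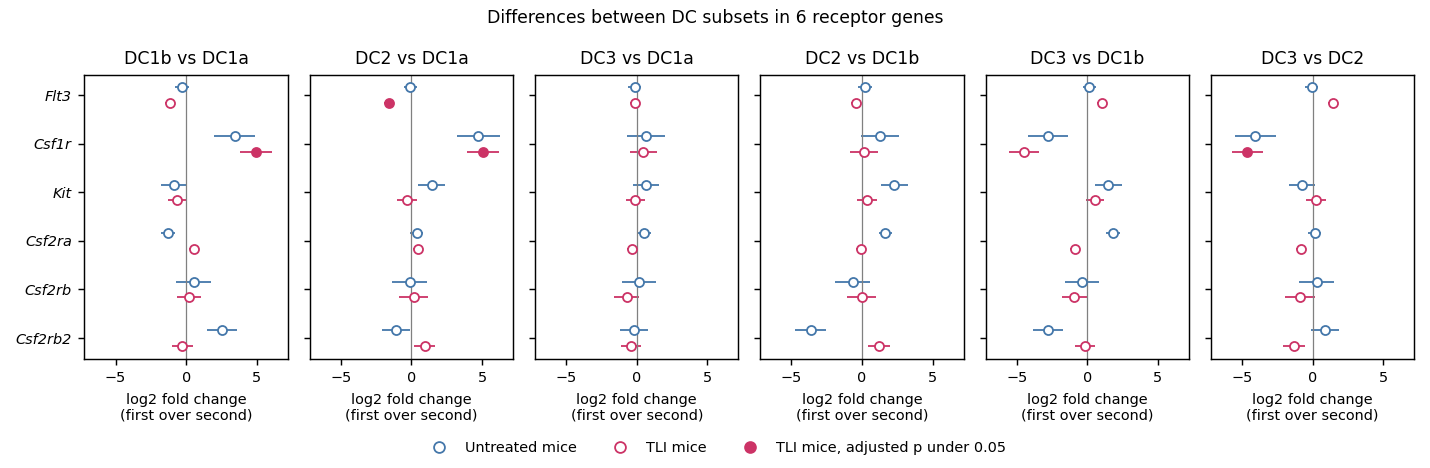
Fitted log2 fold changes between DC subsets for 6 of the receptors, with the first subset over the second on the horizontal axis and 1 SE as the bars; blue circles are Untreated mice and red circles TLI mice. The 4 filled circles, which are Csf1r in 3 pairs and Flt3 in DC2 against DC1a, mark an adjusted p under 0.05; Csf3r is left out because many of its libraries are at 0.

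Flt3 encodes the receptor for FLT3 ligand, on which DCs depend. The gene lies on chromosome 5 from 147330741 to 147400489 on the minus strand, and overlaps the antisense gene Gm26597, whose reads cannot be told apart from its own unless strand was used in counting, which is not stated. In Untreated mice the levels in pools 1 and 2 were 141 and 138 CPM in DC1a, 113 and 165 CPM in DC1b, 183 and 121 CPM in DC2, and 125 and 176 CPM in DC3 cells. These 4 groups overlapped, and their means lay between 139 and 152 CPM. In TLI mice DC1a pools 1 to 4 held 123, 276, 81.8 and 66.7 CPM, and DC1b pools held 114, 116, 34.5 and 18.5 CPM. TLI DC2 cells held 76.5, 35.1 and 28.1 CPM in pools 1, 3 and 4, and TLI DC3 cells held 103, 216, 103 and 95.0 CPM in pools 1 to 4. The batch 2 pools were the lower ones in DC1a, DC1b and DC2 cells, and batch is a term of the fit.

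Flt3 fell 3.01-fold in DC2 against DC1a cells of TLI mice (log2 fold change -1.59, SE 0.38, edgeR's quasi-likelihood test, adjusted p = 0.0256). The groups overlapped across batches, but within each batch every DC2 library lay below every DC1a library. The fitted value was -1.54 in batch 1 alone and -1.48 in batch 2 alone, with adjusted p of 0.412 and 0.186 from fewer libraries. With the pool as a replicate block it was -1.47 and no longer passed (edgeR, adjusted p = 0.0585). Without the batch term it was -1.83 (edgeR, adjusted p = 0.164), and with TLI libraries alone the adjusted p was 0.0529. Leaving out DC1a pool 2, 3 or 4 gave adjusted p of 0.0652, 0.0754 and 0.0520, and leaving out DC2 pool 1, 3 or 4 gave 0.134, 0.0591 and 0.0915 (edgeR). In DC3 against DC2 cells the fold change was 1.44 on the log2 scale with an adjusted p of 0.0749, and in DC1b against DC1a cells -1.18 with an adjusted p of 0.110, by the same edgeR test. DESeq2 called both.

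The 250 bases before the annotated start of Flt3 are shown because its level was the most even of the 7 across Untreated subsets. They lie at chr5:147400490-147400739 on the minus strand, from the RefSeq promoter table (GRCm38.p6), which holds 5 of the 7 genes and not Csf1r or Csf2rb.
Flt3: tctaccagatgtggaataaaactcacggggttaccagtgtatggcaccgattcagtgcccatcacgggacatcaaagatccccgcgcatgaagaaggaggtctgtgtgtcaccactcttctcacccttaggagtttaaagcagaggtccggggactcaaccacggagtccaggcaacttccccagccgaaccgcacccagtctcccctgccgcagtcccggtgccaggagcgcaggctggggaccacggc
Of 4 motifs searched on both strands, none was found in this window: GAGGAA (bound by PU.1 and other ETS factors), TTCNNNGAA (STAT factors), TTNCNNAA (C/EBP factors) and CAGGTG (TCF4 and other E proteins). Among 32851 promoter windows of this length 23.3% held GAGGAA, 7.02% TTCNNNGAA, 36.8% TTNCNNAA and 17.2% CAGGTG. That the letters are absent says nothing of the factors.

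Csf1r encodes the receptor for CSF1 and IL-34 and lies on chromosome 18, plus strand, where it overlaps Hmgxb3 on the other strand. In Untreated mice, pools 1 and 2 held 8.51 and 1.12 CPM in DC1a, 49.4 and 77.7 CPM in DC1b, 122 and 171 CPM in DC2, and 16.7 and 2.04 CPM in DC3 cells. No DC1b or DC2 library overlapped with a DC1a or DC3 library. Among TLI mice, DC1b pools 1 to 4 held 143, 120.5, 394 and 206 CPM, and DC2 pools 1, 3 and 4 held 275, 278 and 281 CPM. Against these, TLI DC1a pools 1 to 4 held 1.58, 15.99, 8.19 and 0.652 CPM, and TLI DC3 pools held 1.71, 19.3, 2.71 and 18.4 CPM. The high and the low subsets again did not overlap, and within TLI DC1a and TLI DC3 the libraries spread widely.

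Of the 4 calls 3 were in Csf1r. Its level was 30.9-fold higher in DC1b than in DC1a cells of TLI mice (log2 fold change 4.95, SE 1.10, adjusted p = 0.0288), and 34.1-fold higher in DC2 than in DC1a cells (5.09, SE 1.13, adjusted p = 0.0176). It was 24.6-fold lower in DC3 than in DC2 cells (log2 fold change -4.62, SE 1.10, adjusted p = 0.0471). DC3 against DC1b, at -4.47 on the log2 scale, missed the threshold narrowly (adjusted p = 0.0525), all by edgeR's quasi-likelihood test. Within batches the fitted values were 4.00 in batch 1 and 6.03 in batch 2 for DC1b against DC1a, 4.85 and 5.73 for DC2 against DC1a, and -4.73 and -4.66 for DC3 against DC2. None of these passed on its own, with edgeR's adjusted p between 0.175 and 0.534. With the pool as a replicate block the 3 calls held, with adjusted p of 0.0236, 0.0139 and 0.0388 (edgeR).

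The direction held in every leave-out, but the calls did not. DC1b against DC1a lost its call without DC1a pool 1, 3 or 4 or DC1b pool 3, with adjusted p of 0.0948, 0.103, 0.0862 and 0.0620. DC2 against DC1a lost it without DC1a pool 1 or 3, at 0.0537 and 0.0594. DC3 against DC2 lost it in 17 of 23 leave-outs, with the highest adjusted p at 0.149 without TLI DC3 pool 3: these were each library of TLI DC2 and TLI DC3, TLI DC1b pools 1, 2 and 4, TLI DC1a pool 3, and each library of Untreated DC1a, DC1b and DC2. With TLI libraries alone its adjusted p was 0.0662 (edgeR). In Untreated mice the log2 fold changes were 3.44 (SE 1.44) for DC1b against DC1a and 4.72 (SE 1.52) for DC2 against DC1a, with edgeR's adjusted p of 0.402 and 0.148. DESeq2 called the second of these.

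The summed markers of monocytes and macrophages were higher in the subsets with high Csf1r. The 12 genes of that list summed to 7696 to 25533 CPM in TLI DC1b and 5847 to 14339.7 CPM in TLI DC2, against 468.6 to 1809.6 CPM in TLI DC1a and 1439 to 3810 CPM in TLI DC3. In Untreated mice the sums were 3738 and 5774 CPM in DC1b, 5698 and 5296 CPM in DC2, at most 896 CPM in DC1a and at most 2976 CPM in DC3. Lyz2, the lysozyme gene of monocytes and neutrophils, gave 6898 to 23476 CPM in TLI DC1b and 5038 to 11465 CPM in TLI DC2. Its mean was 2549 CPM in Untreated DC1b and 5084 CPM in Untreated DC2. The sums in TLI DC1b and in both DC2 groups were thus mostly Lyz2. Fcgr1, the high-affinity Fc receptor of macrophages, was at or under the floor in all DC1a libraries and at 0 in Untreated DC1b. It ranged from 5.48 to 90.4 CPM in TLI DC1b, and averaged only 0.642 CPM in Untreated DC2, where Csf1r was high. Not all genes of the list had this order. Ccr2, a chemokine receptor of monocytes, averaged 241 CPM in Untreated DC3 against 131 CPM in DC1b and 43.5 CPM in DC2, and 376 CPM in TLI DC3 against 168 CPM in TLI DC1b. Vcam1, an adhesion molecule of splenic macrophages, averaged 19.3 CPM in Untreated DC1a and 0.816 CPM in DC1b. Ly6c2, a monocyte surface gene, gave 1914 CPM of the Untreated DC1b mean and 20.5 CPM of that of Untreated DC2. The part of such cells in the Csf1r values was not tested.

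**Figure D2:**
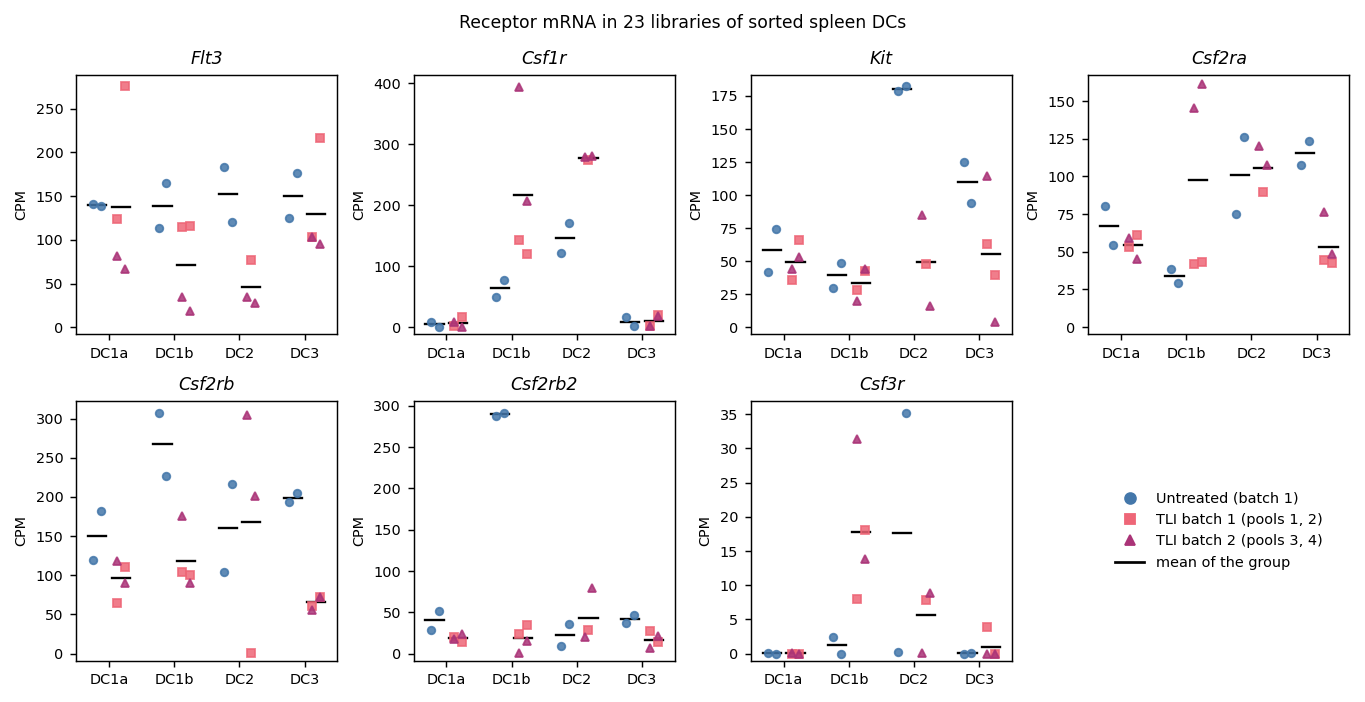
CPM of each receptor gene in all 23 libraries, by DC subset, with Untreated mice to the left and TLI mice to the right of each tick; circles are Untreated pools, squares TLI pools of batch 1, triangles TLI pools of batch 2, and bars the group means. Csf1r separates DC1b and DC2 from DC1a and DC3, and Csf2rb2 is near 290 CPM in the Untreated DC1b pools and at most 79.2 CPM elsewhere.

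Kit encodes the receptor for stem cell factor, a mark of progenitors and mast cells, and lies on chromosome 5 from 75574916 to 75656722 on the plus strand. In Untreated mice, pools 1 and 2 held 179 and 182 CPM in DC2, 125 and 94.0 CPM in DC3, 42.0 and 74.4 CPM in DC1a, and 29.8 and 48.6 CPM in DC1b cells. DC2 lay above DC3, and DC3 above both DC1 subsets, with no overlap. In TLI mice DC1a pools 1 to 4 held 35.7, 65.8, 43.9 and 52.9 CPM, and DC1b pools held 28.1, 42.4, 20.0 and 43.8 CPM. TLI DC2 pools 1, 3 and 4 held 47.8, 84.6 and 15.7 CPM, and TLI DC3 pools 1 to 4 held 63.0, 39.9, 115 and 3.81 CPM. All 4 TLI groups overlapped, and the DC2 libraries lay below both Untreated DC2 libraries.

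No difference in Kit passed. For DC2 against DC1b cells of Untreated mice the log2 fold change was 2.28 (SE 0.96, adjusted p = 0.492), and for TLI against Untreated DC2 cells it was -1.86 (SE 0.89, adjusted p = 0.563), both by edgeR. The 9 mast cell, basophil and eosinophil markers summed to 12.4 and 0.675 CPM in Untreated DC2 pools 1 and 2, where Kit was highest. Cpa3, the mast cell carboxypeptidase, did not exceed the floor in either, and reached 1430.4 CPM in TLI DC1b and 348 CPM in Untreated DC3. The sums of the list were 1159.7 and 42.6 CPM in Untreated DC3, 1.84 and 209 CPM in Untreated DC1b, and 6.52 to 1518 CPM in TLI DC1b, and their part in the Kit values was not tested.

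Csf2ra encodes the alpha chain that gives the GM-CSF receptor its ligand, and lies on chromosome 19 from 61223957 to 61228429 on the minus strand. Its levels in Untreated pools 1 and 2 were 38.6 and 29.4 CPM in DC1b, 80.3 and 54.4 CPM in DC1a, 75.3 and 126 CPM in DC2, and 108 and 124 CPM in DC3 cells. DC1b was the lowest subset, with no overlap. TLI DC1b cells held 41.6 and 42.9 CPM in the pools of batch 1 but 145 and 161 CPM in those of batch 2. In TLI DC1a pools 1 to 4 the level was 53.4, 61.3, 58.9 and 45.4 CPM, in DC2 pools 1, 3 and 4 it was 89.3, 120.3 and 107 CPM, and in DC3 pools 1 to 4 it was 44.6, 42.5, 76.1 and 48.6 CPM. TLI DC3 libraries lay below both Untreated DC3 libraries, and TLI DC1b libraries above both Untreated DC1b libraries.

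These differences did not pass edgeR's test. In DC3 against DC1b cells the log2 fold change was 1.80 in Untreated mice (SE 0.48, adjusted p = 0.173) and -0.89 in TLI mice (SE 0.34, adjusted p = 0.293). TLI against Untreated mice gave 1.35 in DC1b (SE 0.46, adjusted p = 0.240) and -1.35 in DC3 cells (SE 0.41, adjusted p = 0.348). The interaction of TLI and subset, tested in edgeR as 1 term, had an unadjusted p of 0.00263 and an adjusted p of 0.356. DESeq2 called the interaction, with an adjusted p of 0.0128. It also called DC3 and DC2 against DC1b cells of Untreated mice (adjusted p = 0.00719 and 0.0164), and TLI against Untreated DC1b cells (adjusted p = 0.0328). In these 3 comparisons DESeq2 called 4.83%, 5.47% and 6.44% of all genes. The TLI DC1b pools of batch 1 lay only slightly above the Untreated DC1b pools, and those of batch 2 lay far above both. A single batch term was shared by all subsets, and no Untreated pool was in batch 2. These fits of all libraries therefore cannot separate a batch gap in DC1b cells from an effect of TLI. Within batch 1, which holds pools of both treatments, TLI DC1b held 41.65 and 42.93 CPM and Untreated DC1b 38.56 and 29.42 CPM.

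Across the 4 subsets, edgeR called 0 of 28 tests of the receptors in TLI against Untreated mice, with 3 at an unadjusted p under 0.05, and DESeq2 called 2, beside 3.73% to 6.44% of all genes. The share of all genes called by edgeR was 0.0102% in DC1a, 0.413% in DC1b, 0.0612% in DC2 and 0.0255% in DC3 cells. For the interaction edgeR called 0 of 7 receptors, 2 of them with an unadjusted p under 0.05, and DESeq2 called 1. Of all 19597 genes edgeR called 0.0357%, and DESeq2 called 392. All Untreated pools were in batch 1, so the batch term rests on the TLI pools alone.

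Csf2rb, the common beta chain, lies on chromosome 15 from 78325752 to 78353847 on the plus strand, 20030 bases from Csf2rb2, which lies from 78282507 to 78305721 on the minus strand. In Untreated pools 1 and 2 Csf2rb was at 119 and 182 CPM in DC1a, 307 and 227 CPM in DC1b, 104 and 216 CPM in DC2, and 194 and 205 CPM in DC3 cells. TLI DC1a pools 1 to 4 held 64.8, 111, 118 and 90.2 CPM, DC1b pools 105, 99.8, 176 and 89.6 CPM, and DC3 pools 61.1, 71.9, 55.2 and 72.6 CPM. In DC1a, DC1b and DC3 cells every TLI library lay below every Untreated library of the subset. In DC1a cells this rests on 117.9 against 118.8 CPM, and edgeR's adjusted p was 0.84 in DC1a and 0.69 in DC1b cells. How many of all genes were separated in this way was not counted, here or for the other receptors. TLI DC2 pools 3 and 4 held 304 and 201 CPM, whereas pool 1 held 4 counts, or 0.170 CPM. With all libraries no difference passed edgeR's test, and the largest between TLI and Untreated mice was -1.76 on the log2 scale in DC3 cells (SE 1.06, adjusted p = 0.567).

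The DC2 library of TLI pool 1 stood apart in Csf2rb. It held 672 counts of Csf2rb2, or 28.6 CPM, which made up 99.4% of the sum of the pair. With batch 1 only, where it is the single TLI DC2 library, edgeR called Csf2rb in TLI against Untreated DC2 cells at -9.76 on the log2 scale (adjusted p = 0.00136). Without this library edgeR called Csf2rb lower in DC3 than in DC2 cells of TLI mice, at -1.79 on the log2 scale (adjusted p = 0.0170), and called it in no comparison of TLI with Untreated mice. Both results thus rest on whether this library is kept.

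Csf2rb2, the IL-3 receptor beta chain, was high in 1 of the 8 groups. The level in Untreated DC1b cells was 288 and 292 CPM in pools 1 and 2. In the other Untreated cells pools 1 and 2 held 28.4 and 52.0 CPM in DC1a, 8.83 and 35.6 CPM in DC2, and 36.5 and 46.1 CPM in DC3. TLI DC1b cells held 23.3, 34.1, 1.05 and 15.7 CPM in pools 1 to 4. TLI DC1a pools held 20.1, 13.5, 17.5 and 23.8 CPM, DC2 pools 1, 3 and 4 held 28.6, 20.1 and 79.2 CPM, and DC3 pools 1 to 4 held 26.7, 13.6, 6.75 and 20.7 CPM. The 2 Untreated DC1b libraries thus lay above all 21 others.

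By edgeR's test Csf2rb2 was 11.8-fold lower in TLI than in Untreated DC1b cells without passing the threshold (log2 fold change -3.56, SE 0.86, adjusted p = 0.0864). In limma it was -4.17 and passed, with the pool as a random replicate block (adjusted p = 0.00421) as without it (adjusted p = 0.00425, added after seeing the data), and DESeq2 gave -3.57 (adjusted p = 0.00233). In this comparison limma without the block called 3.78% of all genes and DESeq2 6.44%, against 0.413% by edgeR. Against Untreated DC1b cells, Untreated DC2 cells gave -3.64 (SE 1.10, adjusted p = 0.243) and DC3 cells -2.78 (SE 1.06, adjusted p = 0.479) by edgeR. The gene's share of the sum of the pair was 48.4% and 56.3% in the Untreated DC1b pools. It was 0.594% to 30.4% in the others, leaving out the DC2 library of TLI pool 1. When the counts of both genes were summed, an alternative chosen after seeing the data, the fall in DC1b cells was -1.96 on the log2 scale (SE 0.56, adjusted p = 0.154).

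**Figure D3:**
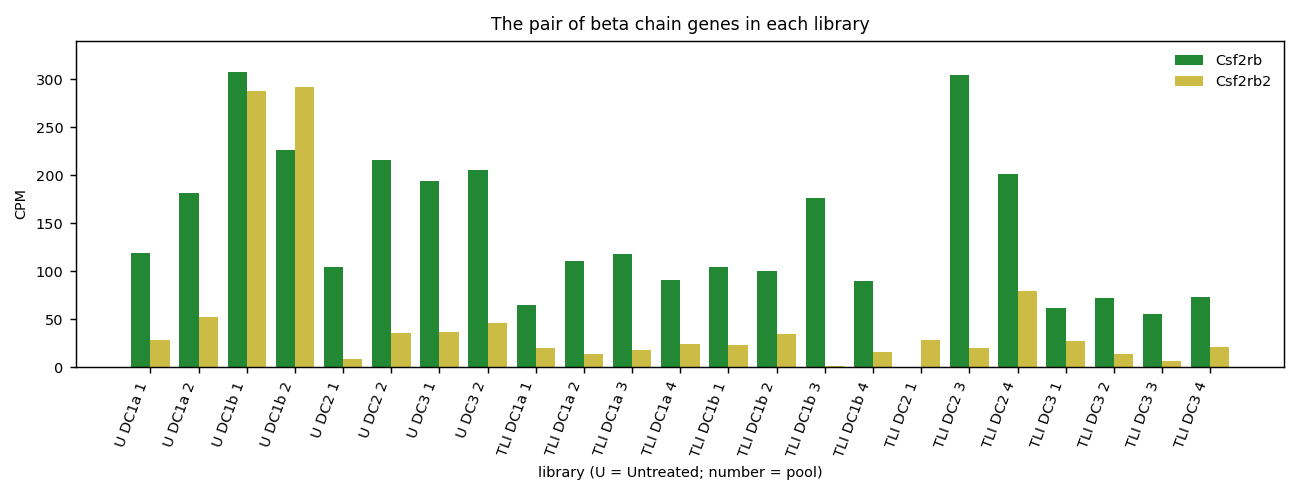
CPM of Csf2rb (green) and Csf2rb2 (yellow) in each library, with Untreated libraries (U) to the left and TLI libraries to the right, ordered by subset and pool. The bars of the pair are of like height in Untreated DC1b cells only, and the Csf2rb bar is missing in the DC2 library of TLI pool 1, where it was 0.170 CPM.

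Plasmacytoid DC genes moved with Csf2rb2. Siglech, a surface lectin of plasmacytoid DCs, was at 1160 and 1858 CPM in Untreated DC1b, at 0.268 to 31.2 CPM in TLI DC1b, and at 0 in all TLI DC1a libraries. Tcf4, the transcription factor that maintains plasmacytoid DCs, ranged from 523 to 1026 CPM in Untreated DC1b and from 23.4 to 64.4 CPM in TLI DC1b. All 8 markers of the list were above the floor in both Untreated DC1b libraries, and also in both libraries of Untreated DC1a and of Untreated DC3. In pools 1 and 2 they summed to 66.4 and 136 CPM in Untreated DC1a and to 313 and 225 CPM in Untreated DC3. What plasmacytoid DCs add to the level of Csf2rb2 was not tested.

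The 250 bases before the start of Csf2rb2 (chr15:78305722-78305971, minus strand, RefSeq, GRCm38.p6) are shown as those of the member with this pattern. Capitals mark a match of GAGGAA, read here as TTCCTC from the other strand, and a match of TTCNNNGAA near the start.
Csf2rb2: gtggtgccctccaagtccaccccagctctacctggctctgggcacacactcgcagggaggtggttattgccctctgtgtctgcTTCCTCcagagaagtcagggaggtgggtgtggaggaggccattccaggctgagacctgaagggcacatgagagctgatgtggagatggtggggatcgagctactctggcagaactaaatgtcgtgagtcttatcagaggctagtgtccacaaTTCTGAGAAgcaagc
The TTNCNNAA and CAGGTG letters were not found in the window. The share of all promoter windows with each motif is the one given for Flt3, and a match is a description of the sequence only.

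Csf3r encodes the G-CSF receptor and lies on chromosome 4 from 126024550 to 126044440 on the plus strand. It was above the floor in 10 of 23 libraries. TLI DC1b cells held 7.93, 18.04, 31.4 and 13.8 CPM in pools 1 to 4, and TLI DC1a cells 0, 0, 0.0811 and 0 CPM. Compared with the mean floor of the DC1a libraries, with 3 counts in each, Csf3r was at least 188-fold higher in TLI DC1b than in TLI DC1a cells. The groups did not overlap, although edgeR's adjusted p was 0.149 and DESeq2's 0.00120.

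In the other groups Csf3r was uneven between pools. TLI DC2 cells held 7.78, 0.0603 and 8.93 CPM in pools 1, 3 and 4, and TLI DC3 cells held 3.84 CPM in pool 1 and 0 in the other 3 pools. Untreated pools 1 and 2 held 0.0697 and 0 CPM in DC1a, 2.35 and 0 CPM in DC1b, 0.163 and 35.2 CPM in DC2, and 0 and 0.117 CPM in DC3 cells. The highest level in the series was thus in DC2 cells of Untreated pool 2, and the other pool of that group was near the floor. No difference involving these groups passed edgeR's test. DESeq2 called TLI DC2 against TLI DC1a, at 7.60 on the log2 scale (adjusted p = 0.0219), where it called 12.5% of all genes.

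Neutrophil genes were high in TLI DC1b, as Csf3r was, but their order across the pools differed. S100a9, a calcium-binding protein of neutrophils, ranged from 396 to 5302 CPM in TLI DC1b, from 1.69 to 5.08 CPM in TLI DC1a, and was at 0 in both Untreated DC1a and both Untreated DC3 libraries. The pool with the highest sum of the 12 neutrophil markers, pool 1 at 21848 CPM, had the lowest Csf3r level of TLI DC1b. In Untreated DC2 pool 2, with the highest Csf3r, the same markers summed to 30.6 CPM, of which Mmp8, neutrophil collagenase, gave 27.0 CPM. The part of neutrophils in the Csf3r values was not tested.

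**Figure D4:**
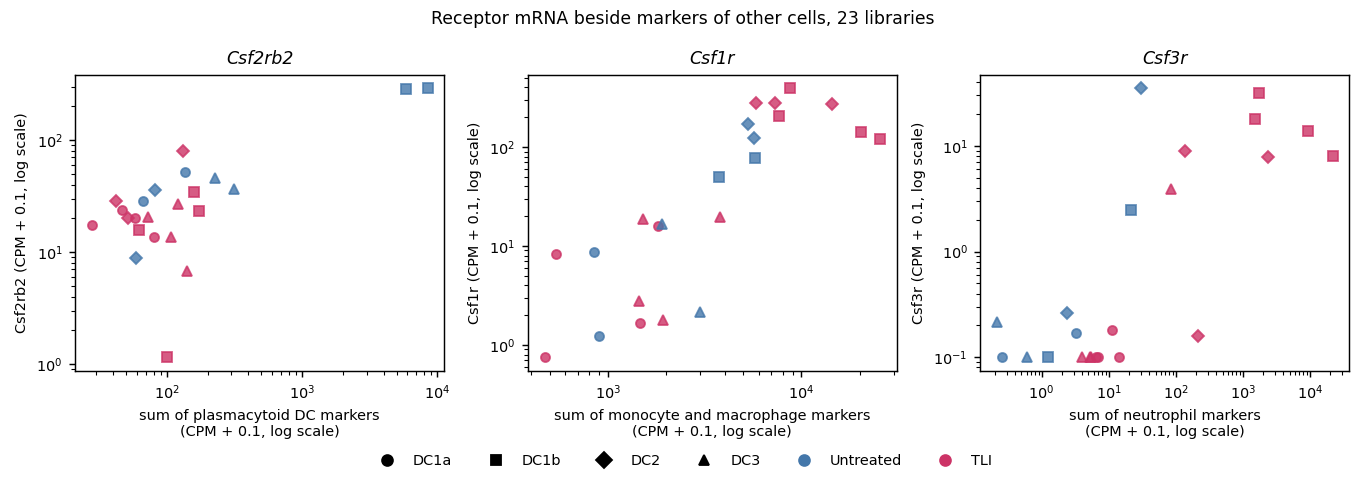
CPM of Csf2rb2, Csf1r and Csf3r (vertical) against the summed CPM of plasmacytoid DC, monocyte and macrophage, and neutrophil markers (horizontal) in 23 libraries, both axes on a log scale after adding 0.1; shapes are subsets, blue is Untreated and red is TLI. The Untreated DC1b libraries stand alone at the top right for Csf2rb2, and DC1b and DC2 libraries lie at the top right for Csf1r.

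Per kilobase of annotated exon, which allows genes to be compared, no receptor led in all groups. In mean CPM per kilobase Csf2ra was highest in Untreated DC1a (23.5), DC2 (35.1) and DC3 cells (40.3), and Csf2rb2 in Untreated DC1b cells (61.2). Csf1r was highest in TLI DC1b (37.4) and TLI DC2 cells (48.1), and Flt3 in TLI DC1a (22.2) and TLI DC3 cells (20.9). In Untreated DC1a cells Csf2ra (SD 6.38), Flt3 at 22.6 (SD 0.258) and Csf2rb at 20.7 (SD 6.12, n = 2 for each) did not differ beyond their spread. Csf1r in TLI DC1b cells (SD 21.5) did not stand apart from Csf2ra at 34.0 (SD 22.4, n = 4 for both) either. Csf3r was the lowest of the 7 in 6 of the 8 groups.

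In the order of mean levels across the 8 groups, most neighbours overlapped. For Flt3 all neighbours did. For Csf1r the breaks lay between Untreated DC2 and Untreated DC1b, and between Untreated DC1b and TLI DC3. For Kit they lay below Untreated DC2 and below Untreated DC3, for Csf2ra above Untreated DC1b, and for Csf2rb and Csf2rb2 below Untreated DC1b. Only neighbours were compared, and groups further apart could overlap across a break. Csf2rb was at 304 CPM in TLI DC2 pool 3, above 227 CPM in Untreated DC1b pool 2. Kit was at 115 CPM in TLI DC3 pool 3, above 94.0 CPM in Untreated DC3 pool 2. The neighbours of Csf3r overlapped throughout.

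The ligands of these receptors were scarce in the sorted cells. Flt3l is not analysed here. Of the 7 other ligands 3 passed the filter. Csf1, the ligand of CSF1R, reached 17.2 CPM in TLI DC2 and 14.02 CPM in Untreated DC3, with 1 library of each group at 0. Csf2, which encodes GM-CSF, reached 35.2 CPM in TLI DC1b and 27.95 CPM in TLI DC3, and was at or under the floor in all Untreated libraries. Kitl, stem cell factor, reached 7.23 CPM in 1 TLI DC2 library and was at 0 in all TLI DC3 libraries. Il34, Csf3, Il3 and Il5 averaged under 1 CPM in every group. EdgeR called 0 of 48 tests of ligands, with 5 at an unadjusted p under 0.05, and DESeq2 called 7, all of Kitl. Of all genes edgeR called 0.0102% to 3.40% and DESeq2 3.73% to 12.5%, depending on the comparison.

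The partner receptors were low too. Il3ra, the IL-3 receptor alpha chain that pairs with both beta chains, reached 6.38 CPM in TLI DC1b and held 2.12 and 2.47 CPM in Untreated DC1a. In Untreated DC1b, where Csf2rb2 was highest, it held 0 and 0.612 CPM. Il5ra, the IL-5 receptor alpha chain, held 0.680 and 1.84 CPM in Untreated DC1b, and was at 0 in all TLI DC1b libraries. Pdgfrb, a kinase of the same class as KIT, reached 9.16 CPM in 1 TLI DC2 library. EdgeR called 0 of 64 tests, 6 with an unadjusted p under 0.05, and DESeq2 called 0. The shares of all genes called were 0.0102% to 3.40% by edgeR and 3.73% to 12.5% by DESeq2, depending on the comparison.

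Downstream of the receptors, 18 signal relays (JAK and STAT proteins, SRC-family kinases, adaptors and kinases of the PI3K and MAP kinase pathways) and 11 brakes (SOCS proteins, phosphatases, ubiquitin ligases) were tested in the same 16 comparisons. EdgeR called 0 of 288 tests of relays, with 32 at an unadjusted p under 0.05, and 0 of 176 tests of brakes, with 31. DESeq2 called 12 and 24 of them, beside 3.73% to 12.5% of all genes, depending on the comparison. The median log2 fold change of the relays in DC2 against DC1a cells was 0.76 in Untreated and 0.43 in TLI mice, beside 0.11 and 0.02 for all genes. For the brakes it was 0.82 and -0.93.

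Transcription factors that act with these receptors in myeloid and DC development were called in 29 of 208 tests, among 13 factors that passed the filter. These were calls by edgeR, which called 0.0102% to 3.40% of all genes, depending on the comparison. In DC1b against DC1a cells of TLI mice 2 rose and none fell, and these were Cebpb, a factor of monocytes and granulocytes, at 6.20 (SE 0.54, adjusted p = 2.66e-06), and Klf4, a factor of monocytes, at 3.19 (SE 0.31, adjusted p = 9.62e-06), by edgeR. In DC2 against DC1a cells of TLI mice 4 rose and 3 fell. The largest were Irf4, a factor of conventional type 2 DCs, at 5.02 (SE 1.26, adjusted p = 0.0350), Cebpb at 4.70 (SE 0.51, adjusted p = 2.78e-05), and Irf8, a factor of type 1 and plasmacytoid DCs, at -4.19 (SE 0.73, adjusted p = 0.00282), by edgeR. Cebpb levels ordered the TLI subsets as Csf1r did into a high and a low set. Its mean was 263 CPM in DC1b and 115 CPM in DC2 cells against 5.53 CPM in DC1a and 16.5 CPM in DC3 cells.

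In DC3 against DC2 cells of TLI mice Irf8 rose and Cebpb fell, by 4.23 and -3.18 on the log2 scale (SE 0.73 and 0.48, edgeR, adjusted p = 0.00434 and 0.00164). In Untreated mice DC1b against DC1a cells showed 2 increases and 1 decrease: Tcf4 at 5.15 (SE 0.71, adjusted p = 0.00126), Cebpb at 3.42 (SE 0.66, adjusted p = 0.0192) and Batf3, a factor of type 1 DCs, at -2.86 (SE 0.45, adjusted p = 0.00380), by edgeR. In TLI against Untreated DC1b cells Cebpb rose and Tcf4 fell, at 4.04 (SE 0.67, adjusted p = 0.0122) and -3.90 (SE 0.52, adjusted p = 0.00294) in edgeR's test. Cebpb ranged from 35.2 to 53.4 CPM in Untreated DC1b and from 148 to 538 CPM in TLI DC1b libraries. The fitted change also holds a batch term that rests on the TLI pools alone, so it need not match the ratio of these levels.

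Genes whose log2 CPM followed each receptor most closely over the 23 libraries were ranked by Pearson's r among 10167 genes with a mean of at least 5 CPM. The libraries share their subset, treatment and batch, so r describes these samples only. Csf2rb was closest to Fam168b (r = 0.935), which was also near 0 in the DC2 library of TLI pool 1, at 0.0425 CPM. Csf1r was closest to Sirpb1a (0.917), a signal regulatory protein, then to Cd300ld (0.909) and Hacd4 (0.908). Sirpb1a averaged 455 CPM in TLI DC2 and 461 CPM in Untreated DC2 cells against 0.455 CPM in TLI DC1a cells. Flt3 was closest to Pcyt2 (0.901), H2-DMb1 (0.862), of the class II antigen pathway, and Zfp207 (0.861).

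Csf3r was closest to Mmp8 (0.886), Gm44805 (0.825) and Arhgef10l (0.817), and Mmp8 was at 0 in every DC1a, DC3 and Untreated DC1b library. Csf2rb2 was closest to Gm38126 (0.819), Gtf2i (0.805) and Slc35b1 (0.756). Gtf2i, a general transcription factor, was at 179 and 195 CPM in Untreated DC1b and at most 38.9 CPM elsewhere. Kit was closest to Abca3 (0.792), Ezh1 (0.765) and Laptm5 (0.745), and Csf2ra to Gm37352 (0.766), Herc3 (0.756) and Itgax (0.737), which encodes CD11c.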

How the data were processed

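RNA of sorted spleen DCs was copied and amplified with a SMARTseq v4 kit, and libraries were made with KAPA HyperPlus. The authors trimmed reads with Trimmomatic, aligned them with HISAT2 to GRCm38, and deposited estimated counts made by StringTie, whole numbers of reads per gene from transcript coverage, not normalized for depth or length. By the methods these were of uniquely mapped reads, so stretches shared by paralogues can lose reads, and overlapping genes may share them. The values were used as deposited, without rounding. DESeq2 is also named in the submitters' processing notes. A table of gene names gave a symbol to 47224 of 47729 ids, and positions came from GENCODE M21.

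All 23 libraries were fitted together in edgeR 4.0.16 (R 4.3.3) with 8 groups and batch, TMM scaling and filterByExpr, which left 19597 genes. The quasi-likelihood test gave log2 fold changes, and p-values were adjusted by Benjamini-Hochberg over all genes tested, with a threshold of 0.05. Residual degrees of freedom were 14. Alternatives used RLE scaling, DESeq2 1.42.0, limma 3.58.1, no filter, no batch term, single batches, single treatments and leave-one-out. The fits were checked on counts with known changes. Tables and figures used Python, pandas and matplotlib.

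Pool numbers pair the subsets, since the labels give the subsets of a pool the same mice. Deviations from group means correlated at -0.00585 to 0.0159 between libraries of an Untreated pool and at 0.0801 to 0.394 in TLI pools, where batch is shared. With batch removed the TLI range was -0.162 to 0.0673.

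Receptors and gene lists were chosen with earlier results of these data known. All 7 receptors are named. Ligands and partner receptors are named where a group mean reached 1 CPM, and other pathway genes where they were among the 3 largest changes past the threshold in a comparison described. Likeness names the 3 genes with the highest r per receptor, except for Csf2rb, where the first is given and the others are not reported here. Marker lists served as checks on the sorted cells. In TLI mice progenitor markers summed to 1.76 to 64.4 CPM, erythroid markers to 107 to 96811 CPM, natural killer cell markers to 0 to 2533 CPM, T cell markers to 2.50 to 294 CPM and B cell markers to 7.89 to 97.6 CPM. Type 2 DC markers summed to 1372 to 2791 CPM in DC2 and 26.4 to 44.0 CPM in DC1a, and the pan-DC markers to at least 10600.6 CPM in every library.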

Additional observations from a re-analysis of the deposited data

Results flagged for a closer look

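Dixon's test was applied to 21 sets of 4 libraries, 7 receptors in the 3 TLI groups of 4. In 3 sets the gap of a library to the others, divided by the range, passed the critical value at the 95% level. Chance passes it in about 1 of 20 sets where values are normally distributed. In both Csf3r sets below, 3 libraries are at 0, so the ratio is 1 whatever the other value. That rate does not hold for them. In TLI DC3 cells Flt3 was at 216 CPM in pool 2 against 95.0 to 103 CPM in the others, a ratio of 0.930. In TLI DC3 cells Csf3r was at 3.84 CPM in pool 1 and at 0 in the other 3 pools. In TLI DC1a cells Csf3r was at 0.0811 CPM in pool 3, which is 3 counts and the floor, and at 0 in the others.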

How the results depend on the processing

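Receptor calls depended on the test more than on scaling. DESeq2 called 5 tests in pairs of Untreated subsets, 10 in pairs of TLI subsets, 2 in TLI against Untreated mice and 1 in the interaction, against 0, 4, 0 and 0 by edgeR. DESeq2 also called more of all genes, at 4.15% to 9.66%, 4.98% to 12.5% and 3.73% to 6.44% of them in the first 3 families, and 392 of 19597 in the interaction against 7 by edgeR. Without the filter on low counts edgeR called 1 in Untreated pairs (Csf1r, DC2 against DC1a) and 1 in TLI against Untreated mice (Csf2rb2 in DC1b). In TLI pairs that fit called 6, adding Csf3r in DC1b against DC1a and Csf1r in DC3 against DC1b to the 4 of the main fit. Its shares of all genes were 0.192% to 0.847% in Untreated pairs, 0.263% to 1.81% in TLI pairs and 0.0754% to 0.406% in TLI against Untreated mice. With batch 1 only it called 3 in TLI pairs, 1 in TLI against Untreated mice and 1 in the interaction, all Csf2rb, for which that fit has a single TLI DC2 library, at 4 counts, and none of the 4 calls of Csf1r and Flt3 passed. Among TLI pairs the libraries of TLI mice alone gave 2 calls, and TLI pools of batch 2 alone, an alternative chosen after the data were seen, gave 0. Limma called 1 test in TLI against Untreated mice (Csf2rb2 in DC1b) with the pool as a replicate block, and 1, the same, without it, a fit added after seeing the data. With the block edgeR called 0 in Untreated pairs, 3 in TLI pairs, where Flt3 was lost, and 0 in the interaction. Within edgeR and within limma the block changed no other call. Leaving out each library gave 0 to 4 calls in TLI pairs, with 0 without TLI DC1a pool 3 and 2 without TLI DC1a pool 1 or TLI DC2 pool 3 or 4, and 0 to 0 in the other comparisons. The 26 differences followed with their fold change were those with an unadjusted p under 0.05 in the main edgeR fit, a choice that favours a steady direction. Among these no alternative reversed a direction. Differences outside this set could reverse. For Csf2rb in DC3 against DC2 cells of TLI mice, the log2 fold change was -0.89 in the main fit and 8.6 with batch 1 only. Groups of 2 Untreated pools, 3 counts as the floor, and a biological coefficient of variation of 1.08 limit what could be called, and amplification adds spread that depth does not reduce. The cause of the differences between tests was not tested.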
